A study of Mus musculus with 5 samples.

Results

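The genes described here encode the integrin chains and other adhesion proteins with which lymphocytes hold on to vessel walls, matrix and each other: the integrin chains Itga4, Itgal, Itgae, Itga6, Itgb1, Itgb2 and Itgb7, the hyaluronan receptor gene Cd44, the selectin ligand gene Selplg and the integrin ligand gene Icam2. They were chosen by symbol, as leukocyte integrin chains, CD44 and a selectin ligand, and make up 10 of the 48440 genes in the expression table. All 10 were found, and all 10 had enough counts to be tested, among 14460 genes tested in all.

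An integrin is a pair of an alpha and a beta chain that span the membrane together, and a chain without its partner does not reach the cell surface in useful amounts. Lymphocyte integrins are held in a bent, weakly binding state until signals from the T cell receptor or from chemokine receptors bring talin and kindlin to the beta chain tail and open the molecule, so the strength of adhesion can change without any change in transcripts. Selectin ligands act earlier, by slowing cells that roll along vessel walls. In regulatory T cells (Tregs), the CD4+ T cells that restrain immune responses, these proteins are known for directing entry into lymph nodes, gut, skin and inflamed tissue.

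The libraries are RNA-seq of Tregs enriched on magnetic beads as CD4+CD25+ cells from spleens of C57B/6 mice on a high-fat diet, freshly isolated and not treated. There were 2 libraries from WT mice and 3 from CD4-KLF10-KO mice (KO), in which the transcription factor KLF10 is deleted in CD4+ T cells. The labels give no age, do not name the allele or the driver of the deletion, and do not say whether the libraries come from different animals. The p-values therefore speak only of the spread among 5 libraries, which may be technical. The question of the comparison is what the loss of KLF10 changes in the RNA of these Tregs.

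Total counts per library lay between 25622614 and 30521797. Klf10 itself was measured at 22.0 CPM in WT replicate 1 and 22.6 CPM in WT replicate 2 (counts per 1000000 reads, scaled by TMM), against 16.0, 12.6 and 8.87 CPM in KO, below WT in every KO library but still present, with an edgeR adjusted p of 0.136. The Treg markers Foxp3, Il2ra, Ctla4, Ikzf2, Ikzf4, Tnfrsf18, Lrrc32 and Nrp1 summed to 1820 and 2242 CPM in WT and to between 1806 and 1843 CPM in KO, so Treg transcripts were present as labelled. Other cells were present too: 8 B cell markers summed to between 2289 and 3276 CPM over the 5 libraries. Macrophage markers were at 277 and 390 CPM in WT against 748 to 915 CPM in KO. For 9 of 9 every KO library was above both WT libraries (17.6% of all genes). Erythroid markers were at 10466 and 14709 CPM in WT against 39936 to 66404 CPM in KO (9 of 9 likewise). The 14 pan-T cell genes went the other way, from 3365 and 3955 CPM in WT to between 2943 and 3045 CPM in KO. Of these, 10 of 14 were below WT in every KO library (17.4% of all genes). Beside TMM, the libraries were therefore also scaled to a common level of these 14 genes, among them Cd3e, Lck and Cd5 (pan-T cell scaling). No defining marker in these lists was at 0 in all libraries. These are bulk libraries, so fewer cells of a type and less RNA per cell cannot be told apart.

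No adhesion gene passed the edgeR threshold between KO and WT, a threshold that few genes of any kind passed. By edgeR's quasi-likelihood test with Benjamini-Hochberg adjustment over all genes, 0 of the 10 were called higher and 0 lower at a false discovery rate of 0.05, where 0.228% of all genes tested were called higher and 0.0553% lower. At an unadjusted p under 0.05, 0 were higher (10.7% of all genes) and 3 were lower, namely Itga6, Selplg and Icam2 (5.62% of all genes). DESeq2 called 1 gene lower, Selplg, where it called 1.45% of all genes lower, and 0 higher. The 3 KO values were all higher than the 2 WT values for 1 gene, Cd44 (17.6% of all genes), and all lower for 4 genes, Itgb7, Itga6, Selplg and Icam2 (17.4% of all genes; the estimates of all but Itga6 turned positive with pan-T cell scaling), while the groups overlapped for the other 5. The median log2 fold change of the 10 was −0.057, against −0.014 over all genes tested, and the extremes were −0.34 for Itga6 and 0.37 for Itgae. That median was −0.015 without WT replicate 1 and −0.13 without WT replicate 2.

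**Figure D1:**
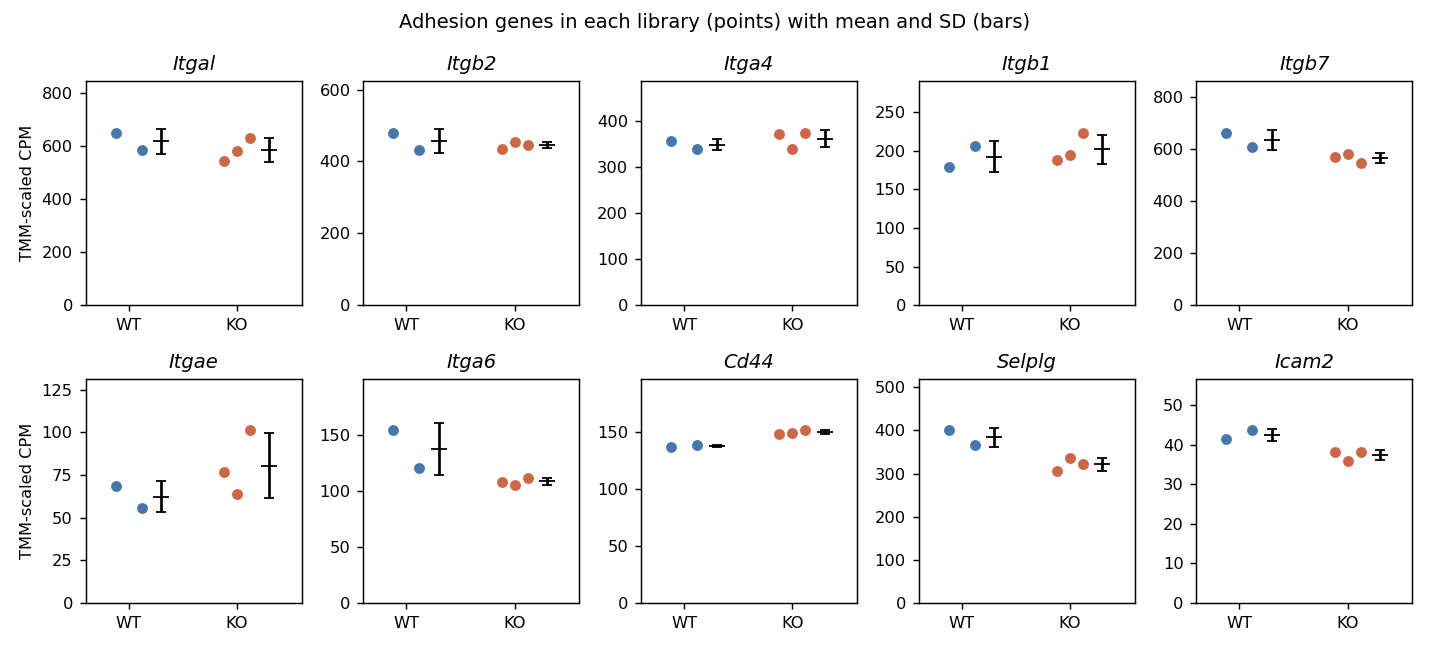
TMM-scaled CPM (vertical axis, from 0) of each adhesion gene in the 2 WT and 3 KO libraries. Points are libraries, and black bars give the mean and SD beside each group. Itgb7, Itga6, Selplg and Icam2 are lower in all KO libraries under this scaling but not under pan-T cell scaling, Cd44 is higher in all of them, and Itgae is spread widely, with KO replicate 3 at 101 CPM.

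Per length, Itgb7, Selplg and Itgb2 were the most abundant. Levels of different genes can be set side by side only in TPM, which divides by gene length. Itgb7 came first at a mean of 515 TPM over the 5 libraries (range 436 to 626), followed by Selplg at 397 TPM (308 to 497), Itgb2 at 349 TPM (299 to 407), Itgal at 216 TPM (173 to 256), Itgb1 at 115 TPM (96.2 to 127) and Itga4 at 60.3 TPM (55.5 to 66.2). The order of these 6 was the same in all 5 libraries, although the ranges of Itgb7 and Selplg overlapped, as did those of Selplg and Itgb2. Cd44 at 50.5 TPM and Icam2 at 49.2 TPM changed places between libraries, with Cd44 the higher in 3 of 5, and so did Itgae at 37.6 TPM and Itga6 at 31.7 TPM, with Itgae the higher in 3 of 5. Among all genes tested, Itgb7 stood above 98.6% and Itga6 above 70.1% by mean TPM. TPM sums to 1000000 in each library, and haemoglobin genes took 4.74% and 6.93% of it in WT and between 16.7% and 24.6% in KO, so TPM levels of KO and WT were not compared with each other.

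LFA-1 is the integrin of all lymphocytes, built from the alpha chain of Itgal (CD11a) and the beta chain of Itgb2 (CD18), and it binds the ICAM proteins at the contact with antigen-presenting cells and on vessel walls. Itgal (ENSMUSG00000030830, chromosome 7, 127296260 to 127335138, plus strand, GRCm38) was at 650.4 and 585 CPM in WT replicates 1 and 2 and at 544, 580.0 and 631 CPM in KO replicates 1, 2 and 3. The groups overlapped, and the log2 fold change was −0.078 (SE 0.087, edgeR adjusted p = 0.719). Itgb2 (ENSMUSG00000000290, chromosome 10, 77530252 to 77565708, plus strand) was at 479.9 and 433 CPM in WT and at 436, 453 and 447 CPM in KO. All 3 KO values lay between the 2 WT values, and the 95% interval of the log2 fold change ran from −0.20 to 0.13 around an estimate of −0.036 (SE 0.068, edgeR adjusted p = 0.846). Both estimates turned positive when WT replicate 1 was left out, to 0.00098 for Itgal and 0.040 for Itgb2. Neutrophils and macrophages also carry beta2. The 7 neutrophil markers summed to 90.4 and 133 CPM in WT and to 181, 188 and 50.4 CPM in KO, with overlapping groups. The 9 macrophage markers summed to 390 and 277 CPM in WT and to 748, 915 and 778 CPM in KO. The part of these cells in the Itgb2 level was not tested.

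The alpha4 chain of Itga4 (CD49d) pairs with the beta1 chain of Itgb1 (CD29) to bind VCAM-1 and fibronectin, and with the beta7 chain of Itgb7 to bind MAdCAM-1 on vessels of the gut. Beta1 has many other alpha partners, and beta7 pairs with alpha4 or with alphaE. Reference promoter sequence was matched for 4 of the 10 genes, and the 250 bases before the start site are shown for this family because the study deletes a Krüppel-like factor, a class of zinc-finger proteins known to bind CACCC and GC boxes. The sequences are RefSeq's (GRCm38.p6), written 5′ to 3′ in the direction of transcription, with capitals marking CACCC (or GGGTG on the other strand) and GGGCGG (or CCGCCC).
Itga4, chr2:79255176-79255425, plus strand: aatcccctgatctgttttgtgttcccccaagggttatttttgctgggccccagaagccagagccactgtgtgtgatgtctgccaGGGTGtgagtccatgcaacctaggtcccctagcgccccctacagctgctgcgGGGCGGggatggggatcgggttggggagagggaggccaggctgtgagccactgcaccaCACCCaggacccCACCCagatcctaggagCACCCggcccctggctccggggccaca
Itgb1, chr8:128685404-128685653, plus strand: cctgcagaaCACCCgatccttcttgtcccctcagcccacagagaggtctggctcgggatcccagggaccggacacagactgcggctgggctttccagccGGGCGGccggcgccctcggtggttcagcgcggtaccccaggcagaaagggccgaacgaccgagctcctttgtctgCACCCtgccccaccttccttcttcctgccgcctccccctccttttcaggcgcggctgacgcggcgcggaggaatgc
Itgb7, chr15:102231936-102232185, minus strand: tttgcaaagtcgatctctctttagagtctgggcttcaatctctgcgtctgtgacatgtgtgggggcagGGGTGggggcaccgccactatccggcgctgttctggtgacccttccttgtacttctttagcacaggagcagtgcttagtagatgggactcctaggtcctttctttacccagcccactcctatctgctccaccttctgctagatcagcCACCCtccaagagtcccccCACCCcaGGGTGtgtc

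CACCC occurred 4 times before Itga4, 2 times before Itgb1 and 4 times before Itgb7, and 0 times before Cd44, the fourth gene with a sequence. GGGCGG occurred 1 time each before Itga4 and Itgb1 and 0 times before Itgb7 and Cd44, and no match overlapped a match of the other motif. At least 1 CACCC was present in 52% and at least 1 GGGCGG in 32.7% of all 32851 promoters of the same length. GC content was 64% for Itga4, 68% for Itgb1, 56% for Itgb7 and 56.4% for Cd44, against a median of 52.4%. These matches describe letters in a window, and binding was not measured.

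Itga4 (ENSMUSG00000027009, chromosome 2, 79255426 to 79333123, plus strand) was at 357 and 340.1 CPM in WT and at 371, 340.1 and 374 CPM in KO. Its groups overlapped, with a log2 fold change of 0.053 (SE 0.069, 95% interval −0.11 to 0.22, edgeR adjusted p = 0.761). It was 0.016 without WT replicate 2, 0.034 without KO replicate 3, 0.090 without WT replicate 1 and 0.096 without KO replicate 2. It overlaps Cerkl on the opposite strand over 2581 bases, and Cerkl had between 79 and 117 counts a library beside 8860 to 11433 for Itga4. Itgb1 (ENSMUSG00000025809, chromosome 8, 128685654 to 128733200, plus strand) was at 179 and 206 CPM in WT and at 188, 195 and 223 CPM in KO, again with overlapping groups. Its log2 fold change of 0.069 (SE 0.10, edgeR adjusted p = 0.791) changed sign without WT replicate 1 (−0.031) or KO replicate 3 (−0.0025).

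Of the 3 genes of the alpha4 family, Itgb7 alone had groups that did not overlap with TMM scaling. With pan-T cell scaling its groups overlapped. Every KO value of Itga4 and Itgb1 then exceeded both WT values (53.6% of all genes), at log2 fold changes of 0.32 and 0.32. With TMM scaling Itgb7 was at 663 and 608 CPM in WT and at 572, 583 and 547 CPM in KO. Every KO library was thus below both WT libraries (17.4% of all genes). The log2 fold change was −0.16 (SE 0.068, 95% interval −0.33 to 7.0e-05, edgeR adjusted p = 0.306). Without WT replicate 1 it was −0.099, and scaled to pan-T cell genes it was 0.10. Itgb7 (ENSMUSG00000001281, 102215995 to 102231935, minus strand) lies on chromosome 15, as no other member does, 63.9 Mb from Klf10.

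AlphaE, the product of Itgae (CD103), pairs with beta7 and binds E-cadherin on epithelium. It marks Tregs and CD8 T cells that stay in tissue, and a subset of dendritic cells. Itgae (ENSMUSG00000005947, chromosome 11, 73090583 to 73147446, plus strand) was at 68.7 and 55.7 CPM in WT and at 76.9, 63.7 and 101 CPM in KO. KO replicates 1 and 3 lay above both WT libraries and KO replicate 2 lay between them. This was the largest estimate of the 10 and the least certain, a log2 fold change of 0.37 (SE 0.20, 95% interval −0.11 to 0.85, edgeR adjusted p = 0.422). Without KO replicate 3 it was 0.18 and without WT replicate 2 it was 0.23. The variation among the KO libraries was 23.6% of the mean, against a median of 5.12% over the 7230 tested genes at or above the median level. The kinase gene Haspin lies inside Itgae on the opposite strand, and had 413 and 374 counts in WT and 386, 445 and 526 in KO beside 2084 and 1452 and 1965, 1675 and 3089 for Itgae. The strand setting is not given in the sources used here, so reads from the stretch that both genes cover cannot be assigned with certainty. The dendritic cell markers summed to 15.1 and 19.6 CPM in WT and 18.1, 21.2 and 25.1 CPM in KO, with overlapping groups. Of these 6 markers, 4 were above WT in every KO library (17.6% of all genes). By edgeR 3 were higher at an unadjusted p under 0.05 (10.7% of all genes), and edgeR and DESeq2 called 0. Their median log2 fold change was 0.45, and that of Flt3, the most abundant of them, was 0.059. The 8 markers of natural killer and CD8 T cells summed to 90.7 and 76.6 CPM in WT and 63.7, 83.0 and 70.8 CPM in KO, with overlapping groups. Their estimates were above 0 for 3 and below 0 for 5, and 3 were below WT in every KO library (17.4% of all genes). By edgeR 2 were lower at an unadjusted p under 0.05 (5.62% of all genes) and 0 were called. DESeq2 called 1 lower (1.45% of all genes), Eomes, at a log2 fold change of −1.13. Pan-T cell scaling also called Eomes lower (0.180% of all genes). The CD8 genes Cd8a and Cd8b1 stood at 22.8 and 17.5 CPM for WT and at 22.7 and 19.0 CPM for KO. The part of dendritic and CD8 T cells in the Itgae level was not tested.

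The genes whose profile over the 5 libraries was most like that of Itgae were Bzrap1, Neb and Dst, at Euclidean distances of 0.17, 0.20 and 0.24 on the centred log2 CPM scale, where the median distance over 7229 genes was 0.70. Bzrap1 was at 31.2 and 23.7 CPM in WT and at 37.0, 26.99 and 48.3 CPM in KO. Neb, which encodes nebulin of the muscle thin filament, was at 57.1 and 40.6 CPM in WT and at 58.8, 54.2 and 74.9 CPM in KO. Dst, which encodes the cytoskeletal linker dystonin, was at 103 and 70.0 CPM in WT and at 98.5, 81.8 and 123 CPM in KO. These genes were picked for their likeness to Itgae, so a shared pattern is no separate result. In each of them, as in Itgae, WT replicate 1 was above WT replicate 2 and KO replicate 3 was the highest library.

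Alpha6, the product of Itga6 (CD49f), pairs with beta1 to bind laminin of basement membranes, and is found on naive T cells, platelets and endothelium. Itga6 (ENSMUSG00000027111, chromosome 2, 71745616 to 71858416, plus strand) was at 154 and 121 CPM in WT and at 108, 106 and 111 CPM in KO. All KO libraries lay below both WT libraries and close to each other, while the WT libraries stood well apart. The log2 fold change was −0.34 (SE 0.11, 95% interval −0.60 to −0.086) with an unadjusted p of 0.0166, and it was not called over all genes (edgeR adjusted p = 0.183, DESeq2 adjusted p = 0.0978). Its size rested on the WT libraries, at −0.15 without WT replicate 1 and −0.51 without WT replicate 2. Under pan-T cell scaling it was −0.063. The 7 platelet and megakaryocyte markers summed to 8.48 and 5.49 CPM in WT and to between 8.63 and 10.3 CPM in KO (2 of 7 with every KO library above WT). The 7 endothelial and stromal markers, of which 5 were tested, summed to 14.1 and 12.8 CPM in WT and to between 23.5 and 26.9 CPM in KO (3 of 5). Over all genes tested, 17.6% had every KO library above WT. Of the platelet list, edgeR and DESeq2 called 0 genes higher, and its sums in WT replicate 1 and KO nearly met. Of the endothelial list, edgeR called 0 and DESeq2 called 1 higher (5.62% of all genes by DESeq2). The part of these cells in the Itga6 level was not tested.

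**Figure D2:**
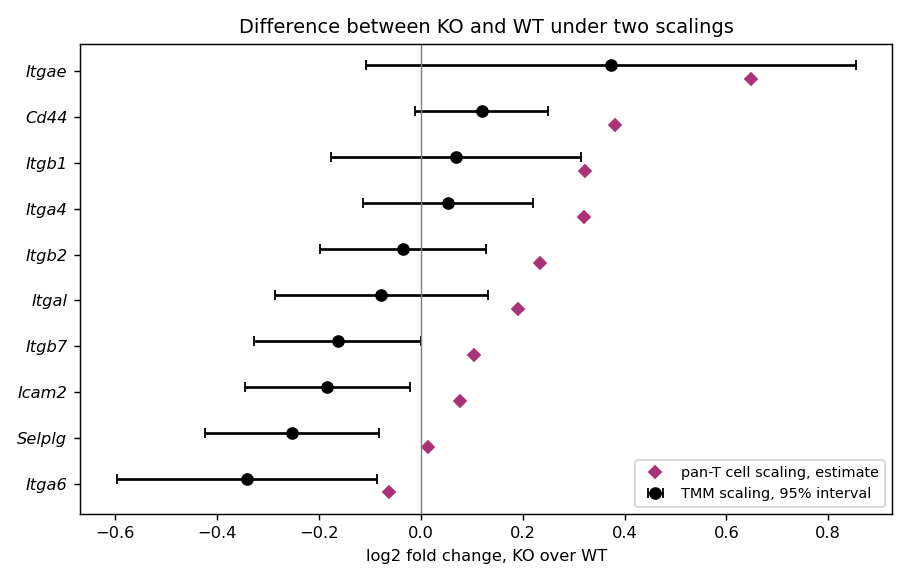
Log2 fold change of KO over WT (horizontal axis) for the 10 adhesion genes. Black points with 95% intervals come from the TMM-scaled edgeR fit and purple diamonds are the estimates under pan-T cell scaling. Intervals of 7 of the 10 genes span 0, and the diamonds lie to the right of the points for every gene.

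Ratios of partner chains within a library do not depend on how libraries are scaled. The log2 ratio of Itgal to Itgb2 was −0.67 and −0.67 in WT and −0.79, −0.75 and −0.61 in KO, and that of Itga4 to Itgb1 was −0.78 and −1.06 in WT and −0.79, −0.97 and −1.03 in KO. For both pairs the groups overlapped (exact permutation test over libraries, two-sided, p = 0.6 and 1). The ratio of Itga4 to Itgb7 was −3.24 and −3.19 in WT and −2.97, −3.13 and −2.90 in KO, higher in every KO library by 0.22 in the mean. Itgae relative to Itgb7 was at −4.01 and −4.19 in WT and at −3.63, −3.94 and −3.17 in KO, also higher in every KO library, by 0.52, which was 0.31 without KO replicate 3. Itga6 relative to Itgb1 was at −1.36 and −1.92 in WT and at −1.94, −2.03 and −2.15 in KO, lower by 0.40, although KO replicate 1 and WT replicate 2 nearly met. That difference was −0.12 without WT replicate 1 and −0.68 without WT replicate 2. These 3 pairs gave p = 0.2 (exact permutation test, two-sided, adjusted p = 0.333 over 5 pairs), which is the smallest p that 10 splits of 2 against 3 libraries allow, so none could pass 0.05.

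**Figure D3:**
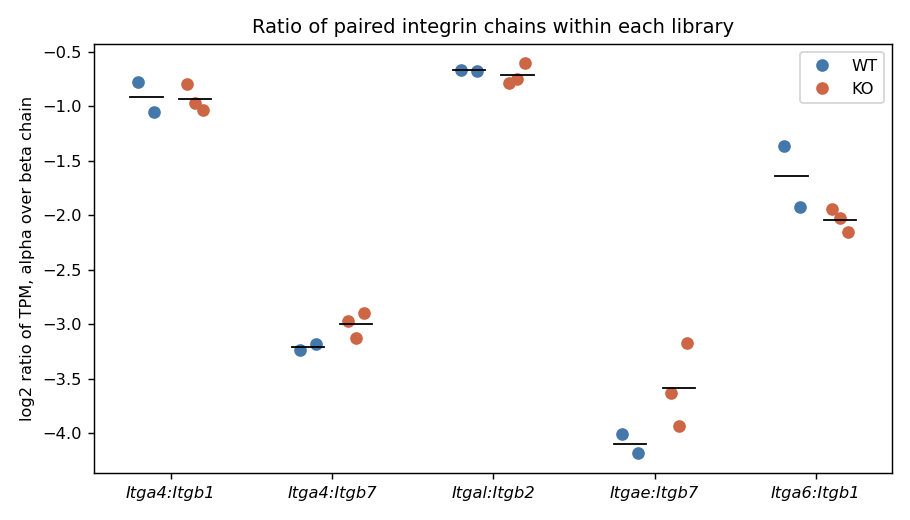
Log2 ratio of the TPM of the alpha chain to that of its beta partner (vertical axis) in each library. Points are libraries and black lines are group means. The WT and KO points do not overlap for Itga4 to Itgb7, Itgae to Itgb7 and Itga6 to Itgb1, and do overlap for the other 2 pairs.

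As shares of the summed TPM of the 4 alpha chains, Itgal took 63.7 ± 0.626% (SD, n = 2) of the WT and 61.6 ± 2.01% (SD, n = 3) of the KO transcripts. Itga4 took 16.9 ± 0.843% and 17.9 ± 1.13%, Itgae 9.17 ± 0.579% and 12.1 ± 1.99%, and Itga6 10.2 ± 0.891% and 8.32 ± 0.434%. Itgae was thus the third alpha chain in every KO library and the fourth in both WT libraries. Among the 3 beta chains, Itgb7 held 54.1 ± 0.771% in WT and 51.4 ± 1.45% in KO, Itgb2 34.9 ± 0.878% and 36.3 ± 0.308%, and Itgb1 11.1 ± 1.65% and 12.3 ± 1.18%. Transcripts of Itgb7 were therefore the largest part of the beta chains in every library, the lowest being 49.8% in KO replicate 3. Shares within a set sum to 100%, so each moves against the others.

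**Figure D4:**
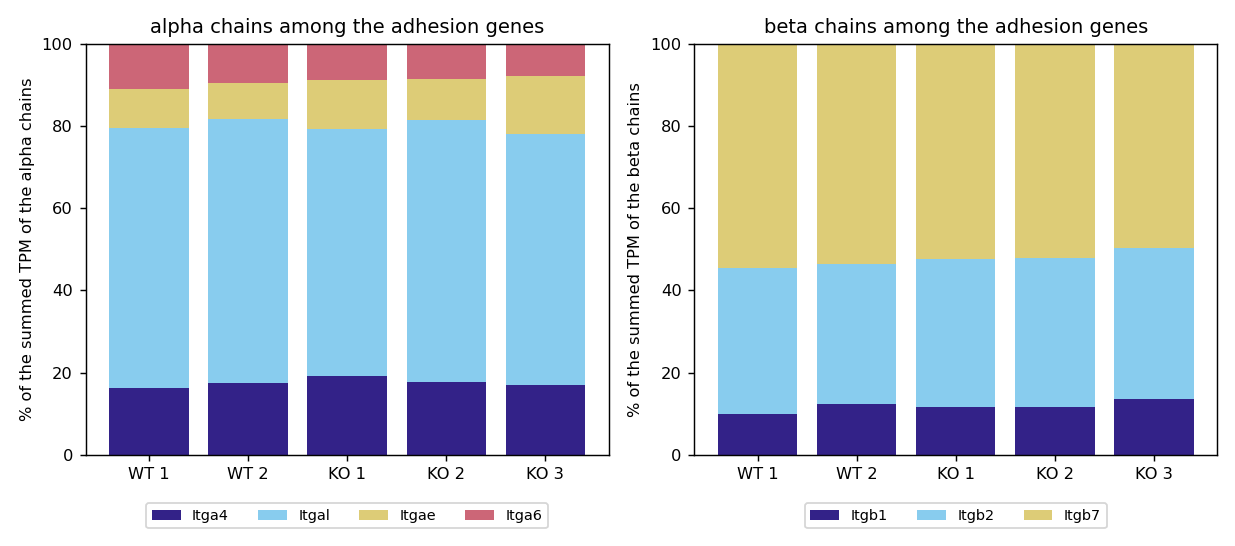
Share (vertical axis, in %) of each integrin chain in the summed TPM of the 4 alpha chains (left) and the 3 beta chains (right), with a bar for each library. Itgal and Itgb7 form the largest blocks in all 5 libraries, and the Itgae block is larger in the KO bars than in the WT bars.

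CD44 is the receptor for hyaluronan, and its level is used to tell antigen-experienced from naive T cells. Cd44 (ENSMUSG00000005087, chromosome 2, 102811141 to 102901665, minus strand) was at 137 and 139 CPM in WT and at 148, 149.6 and 151 CPM in KO. The groups did not overlap, with KO above WT (17.6% of all genes). The variation was 0.772% of the mean in WT and 1.15% in KO, which is imprecise from 2 and 3 libraries. With pan-T cell scaling the WT libraries stood further apart, at 112 and 135 CPM. The log2 fold change was 0.12 (SE 0.054, 95% interval −0.012 to 0.25), which was not called (edgeR adjusted p = 0.349, DESeq2 adjusted p = 0.339), and it was 0.38 with pan-T cell scaling (edgeR adjusted p = 0.0987).

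Selplg encodes PSGL-1, which carries the sugars that P-selectin and E-selectin bind. Selplg (ENSMUSG00000048163, chromosome 5, 113818536 to 113832644, minus strand) was at 399.97 and 367 CPM in WT and at 306, 336 and 323 CPM in KO. Every KO library was below both WT libraries, a 0.839-fold level in KO. The log2 fold change of −0.25 (SE 0.071, 95% interval −0.42 to −0.082) missed the threshold by edgeR (adjusted p = 0.151) and passed it by DESeq2 (adjusted p = 0.0434). Scaled to pan-T cell genes, Selplg had an estimate of 0.015 (edgeR adjusted p = 0.929).

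ICAM-2, a ligand of LFA-1 on lymphocytes, platelets and endothelium, comes from Icam2 (ENSMUSG00000001029, chromosome 11, 106377656 to 106388075, minus strand). Icam2 was at 41.4 and 43.6 CPM in WT and at 38.2, 36.0 and 38.0 CPM in KO, lower in all 3 KO libraries. Its log2 fold change was −0.18 (SE 0.067, 95% interval −0.35 to −0.022, edgeR adjusted p = 0.248). Scaled to pan-T cell genes it was 0.077.

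The direction of 5 of these 10 differences changed with the scaling. Pan-T cell scaling, which sets the geometric mean of those 14 genes equal in all libraries, moved log2 fold changes by a median of 0.26, and 9 of the 10 estimates were then above 0, with Itga6 as the exception. Itgal, Itgb2, Itgb7, Selplg and Icam2 changed sign. Under this scaling 0 of the 10 were called (7.89% of all genes were called higher and 0.180% lower), and the lowest edgeR adjusted p was 0.0617, for Itgae at a log2 fold change of 0.65 (SE 0.18). For 6 of the 10, namely Itga4, Itgb1, Itgal, Itgb2, Itgae and Cd44, every KO value exceeded both WT values (53.6% of all genes), and for 0 every KO value was lower (1.74% of all genes). Scaled this way, Itgae was at 56.3 and 54.4 CPM in WT and at 84.1, 67.8 and 109 CPM in KO. The median log2 fold change of the 10 was 0.21, against 0.25 over all genes tested.

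Adhesion partner genes were read in 6 lists by role, 95 genes in all of which 85 were tested. By edgeR 0 were called higher and 0 lower, with 12 higher (10.7% of all genes) and 14 lower (5.62% of all genes) at an unadjusted p under 0.05. DESeq2 called 10 higher and 6 lower, where it called 5.62% of all genes higher and 1.45% lower. Pan-T cell scaling called 11 higher and 0 lower, where it called 7.89% of all genes higher and 0.180% lower. All 10 that DESeq2 called higher were among these 11. Over all genes tested, pan-T cell scaling likewise called 805 of the 812 that DESeq2 called higher. The median log2 fold change of the 85 was −0.045.

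Of 15 tested genes that regulate integrin activity from inside the cell, not all of them activators, edgeR called 0 higher and 0 lower. With TMM scaling 14 had estimates below 0, where 7709 of all 14460 genes tested did. In 8 of the 15 every KO library was below WT (17.4% of all genes). The median was −0.11, which was 0.15 with pan-T cell scaling. DESeq2 called 1 lower (1.45% of all genes), Rasgrp1, an exchange factor for Ras downstream of the T cell receptor. Rasgrp1 was at 271 and 258.5 CPM in WT and at 219, 214 and 231 CPM in KO (log2 fold change −0.26, SE 0.063, edgeR adjusted p = 0.115, DESeq2 adjusted p = 0.0168). Its estimate with pan-T cell scaling was 0.0089. Tln1, which encodes talin, averaged 968 CPM over the WT and 939 CPM over the KO libraries, Cytip, a regulator of integrin release, at 406 and 358 CPM, and Stk4, the kinase MST1, at 346 and 334 CPM, and in these 3 the groups overlapped. Of 17 tested genes that link integrins to the cytoskeleton, 13 were below 0 and 11 lay below WT in every KO library (17.4% of all genes; median −0.085, and 0.18 with pan-T cell scaling). Coro1a was at 1807 and 1533 CPM, Flna (filamin A) at 1076 and 954 CPM, and Msn (moesin) at 921 and 857 CPM in WT and KO. DESeq2 called 1 of the 17 lower (1.45% of all genes), Coro1a (adjusted p = 0.0210, edgeR adjusted p = 0.151), and its estimate with pan-T cell scaling was 0.024. These values stand beside the pan-T cell genes, of which 14 of 14 were below 0 at a median of −0.30.

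Other integrin chains and ligands included genes with larger differences. Named after their values were seen, Itga9, Itgad and Itgb5 were the 3 integrin chains that both DESeq2 and pan-T cell scaling called higher. Itgad, the CD11d partner of beta2 known from macrophages of the splenic red pulp, was at 57.8 and 33.0 CPM in WT and at 92.3, 122 and 100.1 CPM in KO (log2 fold change 1.20, SE 0.25, edgeR adjusted p = 0.0843). Itga9 was at 16.3 and 11.5 CPM in WT and at 30.05, 35.5 and 33.7 CPM in KO (1.25, SE 0.16, edgeR adjusted p = 0.0598). Itgb5 was at 14.2 and 12.1 CPM in WT and at 25.5, 32.3 and 26.98 CPM in KO (1.10, SE 0.14, edgeR adjusted p = 0.0528). Itgb3 and Itgav, the other abundant chains of this list, were at 51.5 and 43.3 CPM in WT and 43.8 and 46.6 CPM in KO. Itga1, the alpha1 partner of beta1 in a collagen receptor, had the largest change in size of these chains and went the other way, at 2.54 and 1.73 CPM in WT and at 0.783, 0.9502 and 0.819 CPM in KO. Every KO value was below both WT values, with a log2 fold change of −1.33 (SE 0.28, edgeR adjusted p = 0.0845, DESeq2 adjusted p = 0.0254), which was −1.04 with pan-T cell scaling (edgeR adjusted p = 0.0577). Over the 15 tested chains the median log2 fold change was 0.14.

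Vcam1, the vascular ligand of the alpha4 beta1 integrin, which splenic macrophages also make, was at 154 and 95.95 CPM in WT and at 233, 358 and 319 CPM in KO. All KO values exceeded both WT values, and the log2 fold change was 1.28 (SE 0.25, edgeR adjusted p = 0.0818, DESeq2 adjusted p = 1.0e-05). In Itga4 and Itgb1, its receptor chains, the groups overlapped with TMM scaling and did not with pan-T cell scaling, as given above. Of the other ligands, DESeq2 and pan-T cell scaling also called Icam4 and F11r higher. Icam4, an integrin ligand known from red cells, was at 2.14 and 1.65 CPM in WT and at 9.98, 5.09 and 5.93 CPM in KO (log2 fold change 1.87, SE 0.35, edgeR adjusted p = 0.0738). F11r, which encodes the junction protein JAM-A, was at 1.45 and 1.73 CPM in WT and at 3.33, 5.63 and 4.52 CPM in KO (1.499, SE 0.28, edgeR adjusted p = 0.0745). In both, all KO values exceeded both WT values, as did all 9 erythroid markers given above, whose part in these levels was not tested. The LFA-1 ligand gene Icam1 averaged 97.5 CPM over the WT and 112 CPM over the KO libraries. The 9 macrophage markers moved with Itgad, Itga9, Itgb5 and Vcam1, at a median log2 fold change of 1.28 and a range from 0.92 to 1.54, and their part in these differences was not tested.

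Of 10 tested enzymes that build selectin ligands on PSGL-1 and similar proteins, edgeR called 0 higher and 0 lower. DESeq2 and pan-T cell scaling each called 1 higher (5.62% and 7.89% of all genes), Gcnt1, which starts the core O-glycan branch that carries these ligands. Gcnt1 was at 16.9 and 20.6 CPM in WT and at 36.3, 27.97 and 27.7 CPM in KO, with a log2 fold change of 0.71 (SE 0.16, edgeR adjusted p = 0.0929, DESeq2 adjusted p = 0.00305, and edgeR adjusted p = 0.0189 with pan-T cell scaling). All KO values exceeded both WT values. Of the 10 estimates, 7 were above 0 and 3 below, at a median of 0.027. B4galt1 was at 153 and 156 CPM, C1galt1 at 95.7 and 123 CPM and Tpst2, which sulfates PSGL-1, at 97.9 and 96.5 CPM in WT and KO.

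Among 15 other adhesion proteins of lymphocytes, Cd2 (also in the pan-T cell list) was at 370.5 and 312 CPM in WT and KO. Cd53 was at 360.2 and 316 CPM and Spn (CD43) at 326 and 304 CPM. Estimates of these 3, below 0 with TMM scaling, were above 0 with pan-T cell scaling (0.017, 0.077 and 0.17). DESeq2 called Cd2 lower (adjusted p = 0.00501, edgeR adjusted p = 0.104). The same list held genes called higher by both DESeq2 and pan-T cell scaling, Podxl, Cadm1 and Ninj1, and not by edgeR with TMM scaling. Podxl, which encodes the sialomucin podocalyxin, was at 0.660 and 0.576 CPM in WT and at 11.6, 4.98 and 3.01 CPM in KO (log2 fold change 3.38, SE 0.68, edgeR adjusted p = 0.0818). Its WT levels were low, so the size of this change is uncertain. Cadm1, a cell adhesion molecule of the immunoglobulin family, was at 9.93 and 5.105 CPM in WT and at 14.7, 19.4 and 20.1 CPM in KO (1.26, SE 0.29, edgeR adjusted p = 0.104). Ninj1, which encodes the membrane protein ninjurin, was at 22.2 and 21.6 CPM in WT and at 30.6, 29.9 and 32.97 CPM in KO (0.51, SE 0.081, edgeR adjusted p = 0.0683). In each of them all KO values exceeded both WT values. The activating receptor gene Cd226 went the other way, at 32.4 and 25.3 CPM in WT and at 21.4, 19.9 and 21.02 CPM in KO (−0.47, SE 0.12, edgeR adjusted p = 0.120, DESeq2 adjusted p = 0.0344), and its estimate with pan-T cell scaling was −0.19.

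**Figure D5:**
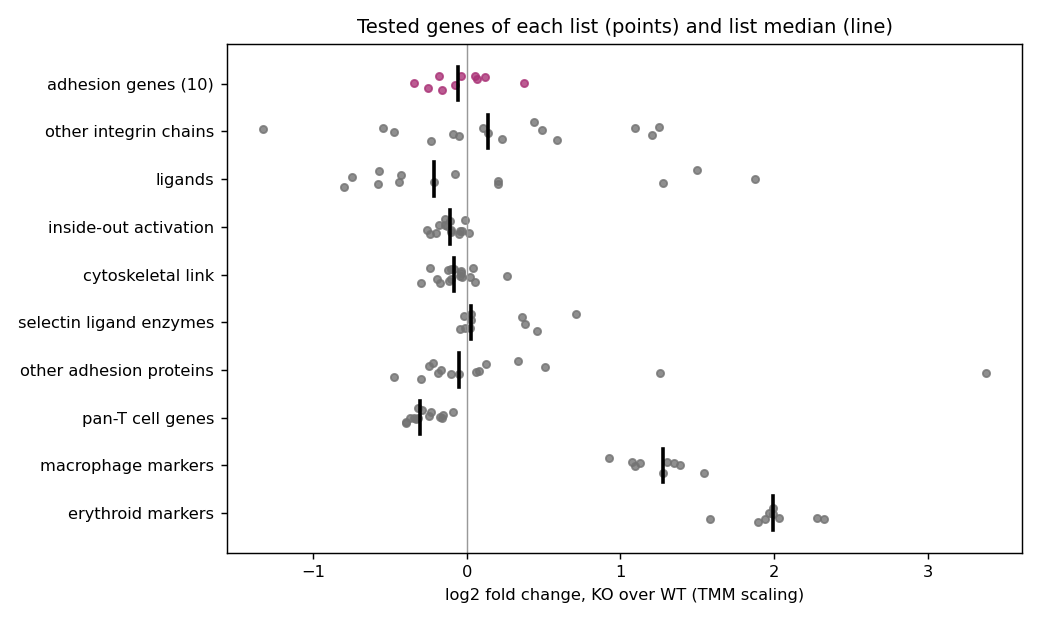
Log2 fold change of KO over WT with TMM scaling (horizontal axis) for the tested genes of each list. Points are genes and black lines are list medians. The 10 adhesion genes lie between −0.34 and 0.37, inside the spread of the other integrin chains and ligands, while the macrophage and erythroid markers all lie to the right of 0 and the pan-T cell genes all to the left.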

How the data were processed

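Ribosomal RNA was depleted before sequencing, per the labels' protocols, and Trimmomatic 0.36, STAR 2.5.2b and the GRCm38 build are named in the submitters' processing notes; for the counter, annotation and strand setting, a name is not given in the sources used here. The authors deposited counts of reads per gene as whole numbers, used for all tests, and TPM and RPKM per library, used for levels and chain ratios. A deposited column named CPM, whose sums differ between libraries, was treated as a score and not used. Every column was matched to a library by its code in the labels, and coordinates are those of the table.

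Low genes were removed by filterByExpr, and TMM-scaled counts went into edgeR 4.0.16 (quasi-likelihood test, genotype only) in R 4.3.3, with Benjamini-Hochberg adjustment over the 14460 genes kept. The SE is the log2 fold change divided by the square root of F, and 95% intervals use the fit's degrees of freedom. CPM values are TMM-scaled. Chain ratios of TPM used exact permutation tests (scipy 1.17.1). Overlapping genes and gene types were read from the GENCODE annotation of GRCm38. Within a group, libraries differed beyond sampling noise (their chi-square per degree of freedom was 16.5 to 39.1), so each was counted, and the biological coefficient of variation was 13.1%. Alternatives were DESeq2 1.42.0 (size factors and Wald test), pan-T cell scaling, no filter, a mean of at least 50 counts, leaving out antigen receptor, haemoglobin, mitochondrial and rRNA genes, a replicate block, a false discovery rate of 0.10 and leaving out each library; for ratios, RPKM and a pseudocount of 1 TPM. The members, lists and alternatives were chosen with earlier results of these data known. Named genes are Klf10, the 10 members, the 3 most abundant genes of each role list, partner genes called by edgeR (0) and the 3 profiles nearest to the member with the largest estimate; others were chosen after their values were seen. A gene of the ligand list is not reported here.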

Additional observations from a re-analysis of the deposited data

How the results depend on the processing

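The count of adhesion genes called by edgeR was 0 higher and 0 lower in all alternatives except the DESeq2 Wald test, which called 1 lower (Selplg). The counts over all genes were less stable. Against 33 higher and 8 lower, there were 1141 and 26 with pan-T cell scaling, 519 and 70 without a filter, 18 and 5 with the stricter filter, 812 and 210 by DESeq2, 103 and 15 without antigen receptor, haemoglobin, mitochondrial and rRNA genes, and 497 and 82 at a false discovery rate of 0.10. Leaving out each library gave between 0 and 319 higher and between 1 and 24 lower. For the adhesion partner genes, against 0 and 0, these were 11 higher with pan-T cell scaling, 10 higher and 2 lower without a filter, 10 and 6 by DESeq2, 2 and 1 without the gene classes above, and 9 and 2 at a false discovery rate of 0.10, and leaving out each library gave 0 to 6 higher. The causes were not tested.

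Signs of estimates also changed, in genes that edgeR did not call. Pan-T cell scaling gave log2 fold changes of 0.10 for Itgb7, 0.19 for Itgal, 0.23 for Itgb2, 0.015 for Selplg and 0.077 for Icam2, by its construction raising nearly every gene. With 1 library left out, the estimates ranged from −0.031 to 0.18 for Itgb1, from −0.15 to 0.00098 for Itgal and from −0.11 to 0.040 for Itgb2, and the Itga4 to Itgb1 ratio from −0.16 to 0.12. Where a group was left with 1 library, that library was assumed to vary like the other group. The replicate block gave 27 genes higher and 5 lower, 0 adhesion genes called and log2 fold changes of −0.0061 for Itgb1, 0.18 for Itgae and −0.13 for Itgal. The labels do not pair the numbers, and deviations of same-numbered libraries correlated at −0.019 and 0.044. Each of the 10 genes had 946 counts or more in every library.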
